A study of Mus musculus with 30 samples.

Results

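In all, 9 long noncoding RNA genes were followed across 30 libraries of primary mouse microglia, the resident macrophages of the brain. They were chosen by name as 2 abundant nuclear RNAs (Neat1 and Malat1), 4 host genes of small nucleolar RNAs (Gas5, Snhg1, Snhg12 and Snhg15), 2 host genes of microRNAs (Mir155hg and Mir22hg) and the imprinted RNA Meg3. Of these 9 genes, 8 had transcripts in the deposited table, which gave 38031 genes in all, and Snhg1 was not analysed here. The 8 genes held 57 of the table's 94647 transcripts.

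The cells were taken from C57BL/6 mice on postnatal day 21, and they carried either the Lrrk2-/- genotype (KO) or the wild-type genotype (WT). Lrrk2 encodes a large kinase linked to Parkinson's disease. The cultures received α-synuclein fibrils, the aggregated form of a neuronal protein that accumulates in that disease, or LPS, an endotoxin of Gram-negative bacteria sensed by Toll-like receptor 4, or served as controls. The groups were KO with fibrils (5 libraries), KO with LPS (4), KO control (6), WT with fibrils (4), WT with LPS (6) and WT control (5). Neither dose, duration of treatment nor sex is given in the labels, and nothing there says whether the libraries of a group came from separate animals or cultures, so the p-values measure only the spread between these libraries, which may be technical.

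Host genes carry their small RNAs inside a longer transcript. Small nucleolar RNAs, which guide the modification of ribosomal and spliceosomal RNA, are released from introns after splicing, and the spliced remainders of hosts such as Gas5 are known substrates of nonsense-mediated decay. MicroRNA hosts are cut in the nucleus by Drosha, which frees a hairpin from which Dicer makes the mature microRNA. Mir155hg, also known as Bic, carries miR-155, a well-known microRNA of macrophage activation, and Mir22hg carries miR-22. Neat1 is the architectural RNA of paraspeckles, and only its long form can build them. Malat1 lies in nuclear speckles together with splicing factors. Meg3 is expressed from the maternal chromosome of the Dlk1-Dio3 imprinted region.

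Counts assigned to genes ran between 8936310 and 35677005 per library (median 20432234), and 14346 genes passed the filter on low counts, among them all 8 members with transcripts. A level is given as CPM, the count per 1000000 (scaled with TMM factors), and a difference as a log2 fold change ± standard error (SE) from edgeR's quasi-likelihood test, called at a Benjamini-Hochberg adjusted p under 0.05 over all tested genes. Lrrk2 had 0.731 to 4.68 CPM in KO libraries, against 6.87 to 16.7 CPM in WT libraries, and its log2 fold change was -2.60 with fibrils, -2.09 with LPS and -2.23 in controls. Tnf, a cytokine of activated macrophages, rose with LPS by 4.11 on the log2 scale in KO and by 4.32 in WT. Markers of microglia summed to between 7172 and 12349 CPM over all libraries, although Siglech was under 1 CPM in every library. An earlier analysis of these data had set apart 7 libraries for their RNA composition, total or markers (KO fibril replicate 5, KO control replicates 1, 4 and 6, WT LPS replicates 1 and 6 and WT control replicate 6), and where a call changes without them this is given.

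The mature sequences of the microRNAs are shown because both hosts rose in all 4 treatment comparisons described below. Sequences are from RefSeq (GRCm38.p6), and capitals mark the seed, bases 2 to 8, which pairs with target RNAs.
mmu-miR-155-5p: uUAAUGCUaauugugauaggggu
mmu-miR-155-3p: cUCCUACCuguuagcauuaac
mmu-miR-22-5p: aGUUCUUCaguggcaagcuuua
mmu-miR-22-3p: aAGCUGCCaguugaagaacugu
The 4 seeds all differ. The arms of miR-155 lie at chr16:84714143-84714165 and chr16:84714182-84714202, and those of miR-22 at chr11:75463734-75463755 and chr11:75463772-75463793, all on the plus strand. The miR-155 hairpin of 65 bases occupied bases 159 to 223 of the 1264-base transcript Mir155hg-201. The miR-22 hairpin of 95 bases occupied bases 241 to 335 of Mir22hg-202 (1752 bases) and bases 136 to 230 of Mir22hg-201 (449 bases). Both hairpins were thus exonic. The libraries did not measure the mature microRNAs, and the hairpin genes themselves were listed at 0 in all libraries.

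RefSeq promoters, 250 bases before to 50 after a start, were found for all members except Neat1, 10 promoters of 8 genes. They were searched on both strands for GGNNTTTCC (NF-kB), TGANTCA (AP-1), TGACGTCA (cyclic AMP response element), CACGTG (E-box), GCGTGGGCG (Egr1) and TGACNNNGC (antioxidant response element core). The promoters of the 2 microRNA hosts are shown because these genes moved together, and that of Gas5 because it is the most abundant of the snoRNA hosts per length. Capitals mark the cyclic AMP response element in Gas5.
Mir155hg, chr16:84712773-84713072, plus strand: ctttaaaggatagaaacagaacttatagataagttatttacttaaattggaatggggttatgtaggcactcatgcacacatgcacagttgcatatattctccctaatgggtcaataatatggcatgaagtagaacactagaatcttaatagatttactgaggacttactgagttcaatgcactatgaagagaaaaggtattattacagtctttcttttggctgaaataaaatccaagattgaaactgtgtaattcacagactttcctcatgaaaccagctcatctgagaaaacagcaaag
Mir22hg, chr11:75461289-75461588, plus strand: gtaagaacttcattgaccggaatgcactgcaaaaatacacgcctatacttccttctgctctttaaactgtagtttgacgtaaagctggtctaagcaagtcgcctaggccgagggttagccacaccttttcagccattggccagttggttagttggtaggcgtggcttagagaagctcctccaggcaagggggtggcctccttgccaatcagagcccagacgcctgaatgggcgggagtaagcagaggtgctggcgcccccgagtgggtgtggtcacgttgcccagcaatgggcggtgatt
Gas5, chr1:161034916-161035215, plus strand: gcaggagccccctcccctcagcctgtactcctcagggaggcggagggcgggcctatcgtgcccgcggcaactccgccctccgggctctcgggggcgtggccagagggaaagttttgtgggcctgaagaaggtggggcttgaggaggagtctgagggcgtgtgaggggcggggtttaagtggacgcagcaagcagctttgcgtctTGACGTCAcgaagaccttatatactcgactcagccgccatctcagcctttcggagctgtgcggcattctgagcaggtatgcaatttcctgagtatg
None of the 6 motifs was in the windows of Mir155hg, Mir22hg, Malat1 or Snhg1, which says only that these letters are not in these windows. The cyclic AMP response element stood at position -46 from the start in Gas5, -57 in Meg3 and -88 in Snhg15, and 1.79% of 32851 mouse promoters of the same length hold it. Snhg15 also held an E-box (7.15% of promoters) and Snhg12 an NF-kB match at -250 (5.82% of promoters). For AP-1 the share was 7.81%, for Egr1 0.612% and for the antioxidant core 12.4%, with no match in a member. A C within 10 bases of the start followed by at least 4 pyrimidines, the form of start known from ribosomal protein genes, was found in Gas5, Snhg12, Meg3, Mir155hg and Mir22hg, and in 30.7% of all promoters. The table held only 1 of 2 annotated Mir155hg transcripts, Mir155hg-201, which starts at 84713023, while the annotated gene starts at 84703167.

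Per length, Malat1 was the most abundant member. Its median over the 30 libraries was 2573 TPM (transcripts per 1000000), and by mean TPM it had rank 34 among all genes. Levels below are medians as well, while all ranks are by mean TPM. Gas5 followed with 239 TPM (rank 488), Neat1 with 113 TPM (rank 1003) and Mir22hg with 75.7 TPM (rank 1476). Snhg12 had 32.1 TPM (rank 3389), Snhg15 27.5 TPM (rank 3985), Mir155hg 2.09 TPM (rank 5190) and Meg3 0.29 TPM (rank 13296). The Mir155hg rank reflects the LPS groups, which averaged 50.7 TPM in KO and 49.2 TPM in WT.

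The microRNA hosts Mir155hg and Mir22hg rose with LPS and with fibrils in both genotypes, and both were higher with LPS than with fibrils. With LPS, 2 members were called in KO, both higher, where 13.7% of all genes were called. In WT, 3 members were called with LPS, all higher, against 15.1% of all genes, and Neat1 was the third of them. With fibrils, 2 members were called in KO, both higher, against 23.7% of all genes, and 3 in WT, 2 higher and Meg3 lower, against 29.4%. The median log2 fold change of the 8 members was 0.17 in KO and 0.32 in WT with LPS, where that of all genes was -0.04 and -0.02. It was 0.10 in KO and -0.21 in WT with fibrils, where that of all genes was -0.04 and -0.05. Comparisons that share a control group are set side by side and are not independent.

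**Figure D1:**
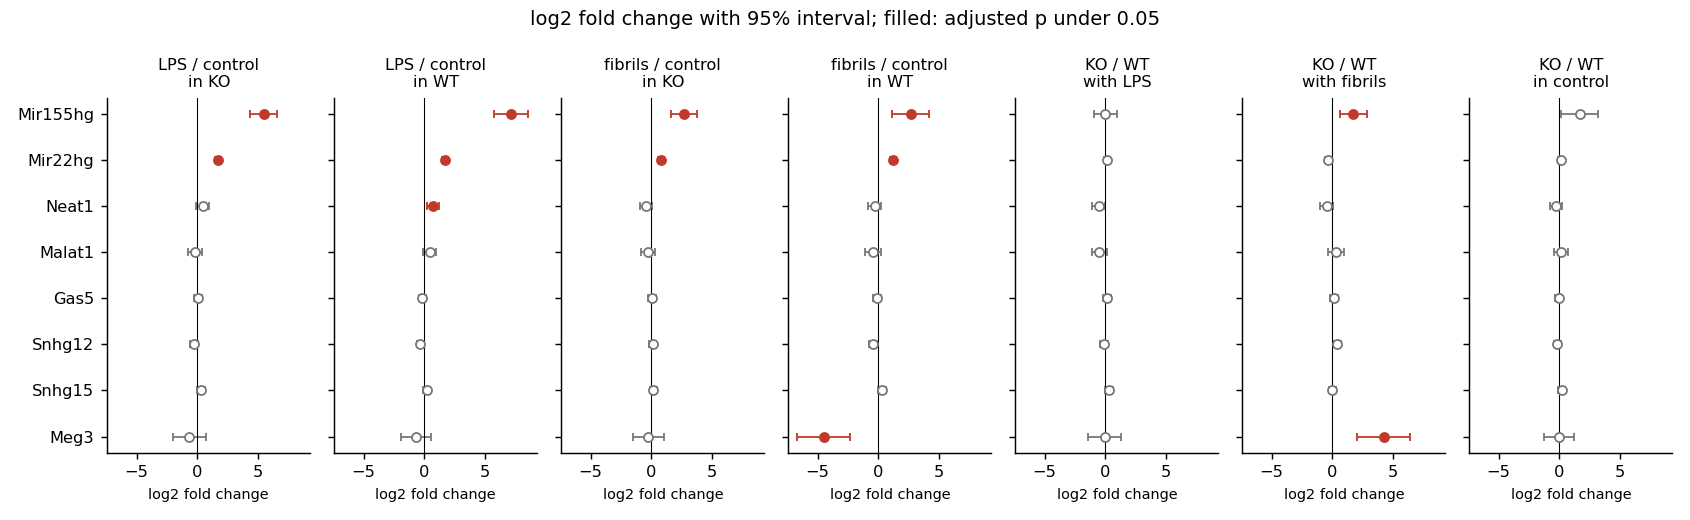
Log2 fold changes (x axis) of the 8 tested members (rows) in 7 comparisons (panels), as points with 95% intervals as bars. Filled red points have an adjusted p under 0.05 over all genes, which Mir155hg and Mir22hg reach in each of the 4 treatment panels on the left, and Meg3 in the panels of fibrils in WT and of KO against WT with fibrils.

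Mir155hg (ENSMUSG00000097418, chr16:84703167-84715245, plus strand) was close to the detection limit in controls and rose in every LPS library. Its level was 45.8, 46.3, 43.5 and 41.1 CPM in the 4 KO LPS libraries, against 0.298 to 1.60 CPM (median 0.862) in the 6 KO controls. In WT it had 30.3 to 51.8 CPM (median 44.8) with LPS, against 0.209, 0.0507, 0.744, 0.323 and 0.175 CPM in controls. No LPS library overlapped a control library, and the libraries of both genotypes lay together with LPS. The log2 fold change was 5.52 ± 0.54 in KO (adjusted p = 2.29e-08) and 7.21 ± 0.68 in WT (adjusted p = 3.04e-09), fitted as 45.8-fold and 148-fold. The control counts behind these folds were 124 over the 6 KO controls and 35 over the 5 WT controls, so the folds rest on few counts. The response in KO minus that in WT was -1.69 ± 0.87 with a 95% interval of -3.48 to 0.10 (adjusted p = 0.992).

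With fibrils Mir155hg rose less. KO fibril libraries had 1.12, 0.879, 6.95, 5.43 and 18.0 CPM, of which replicates 1 and 2 lay within the range of the KO controls and replicates 3, 4 and 5 above it. WT fibril libraries had 1.78, 1.74, 3.04 and 1.22 CPM, all above the WT controls. The log2 fold change was 2.74 ± 0.53 in KO (adjusted p = 0.000317) and 2.70 ± 0.74 in WT (adjusted p = 0.00537). These calls were lost with limma-voom, at an adjusted p of 0.0596 in KO and 0.0801 in WT. The KO value fell to 1.88 without KO fibril replicate 5 and to 1.80 without the 7 libraries, and stayed called.

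**Figure D2:**
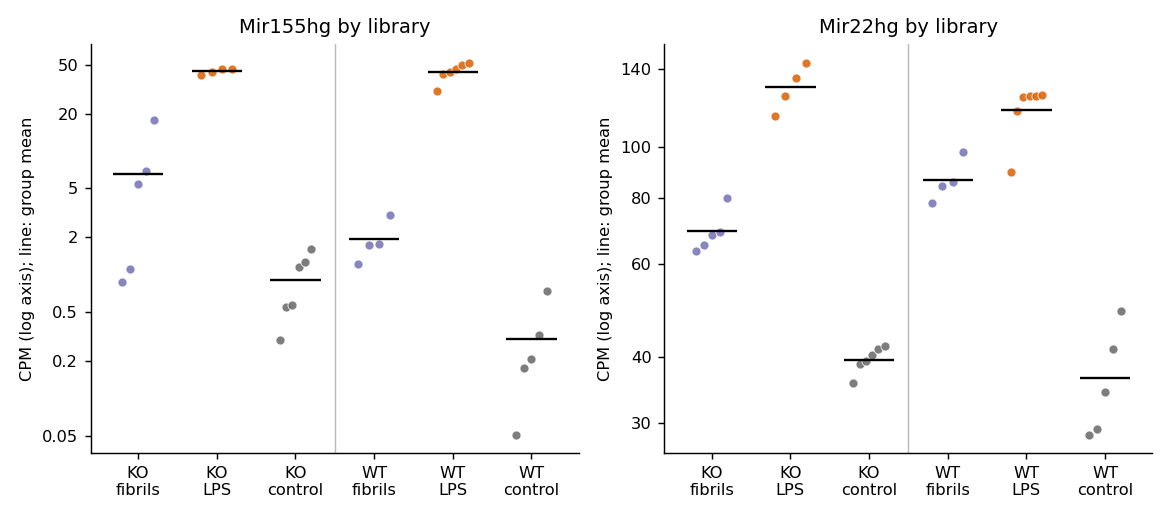
CPM of Mir155hg (left) and Mir22hg (right) in each of the 30 libraries on a log axis, by genotype and treatment, with lines at group means. For both genes every LPS library lies above every control library, and the KO fibril libraries of Mir155hg spread between 0.879 and 18.0 CPM.

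Mir22hg (ENSMUSG00000085148, chr11:75461539-75466676, plus strand) changed less in size and more evenly among libraries. It had 144, 135, 125 and 114 CPM in KO with LPS and 65.0, 68.0, 79.9, 68.9 and 63.5 CPM in KO with fibrils, against 35.6 to 41.8 CPM (median 39.7) in KO controls. In WT it had 89.4 to 125 CPM (median 124) with LPS and 85.7, 97.8, 84.2 and 78.0 CPM with fibrils, against 29.2, 28.4, 34.3, 41.4 and 48.7 CPM in controls. In each genotype no treated library overlapped a control library. The log2 fold change with LPS was 1.71 ± 0.12 in KO (adjusted p = 2.4e-11) and 1.69 ± 0.11 in WT (adjusted p = 1.77e-11). With fibrils it was 0.81 ± 0.11 in KO (adjusted p = 7.35e-06) and 1.25 ± 0.12 in WT (adjusted p = 1.04e-07). The fibril response in KO minus that in WT was -0.44 ± 0.17 with a 95% interval of -0.79 to -0.10, which did not pass the test over all genes (adjusted p = 0.345). The transcript Mir22hg-202 held 91.7% of the gene's count and gave like values, 1.704 in KO and 1.67 in WT with LPS, and 0.77 in KO and 1.25 in WT with fibrils. Mir22hg shares 206 exonic bases with Tlcd2 on the same strand, so reads in that stretch are uncertain.

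Other genes of microRNA hosting and processing were taken from fixed lists. Over all genes 13.7% were called with LPS in KO and 15.1% in WT, and with fibrils 23.7% and 29.4%. List counts against controls are to be read beside these shares. Of 5 other microRNA hosts tested, 3 were called with LPS in KO, with Mir17hg (host of the miR-17 to miR-92 cluster) at 1.19 ± 0.19 and Dleu2 (host of miR-15a and miR-16) at 0.68 ± 0.12 higher and Mir142hg at -1.31 ± 0.33 lower. In WT with LPS, 2 were called, Mir17hg at 1.01 ± 0.18 and Dleu2 at 0.47 ± 0.11. With fibrils only Mir17hg was called, at 0.53 ± 0.18 in KO, and none was called in WT. Of 16 genes of microRNA processing, 1 was called with LPS in KO, Ddx5 (a helicase partner of Drosha) at 0.43 ± 0.08, higher. In WT with LPS Ddx5 at 0.62 ± 0.08 and Ago3 at 0.52 ± 0.13 were higher, and Dgcr8, the RNA-binding partner of Drosha, at -0.27 ± 0.07 and Ago4 at -0.42 ± 0.14 were lower. With fibrils Ago4 and Tnrc6b, parts of the silencing complex, fell in both genotypes, by 0.92 ± 0.14 and 0.65 ± 0.16 in KO and by 0.69 ± 0.16 and 0.68 ± 0.17 in WT. Ran, which with exportin 5 carries hairpins out of the nucleus, rose by 0.44 ± 0.11 in KO and 0.34 ± 0.12 in WT, and in KO Dgcr8 at 0.20 ± 0.07 and Prkra at -0.40 ± 0.15 were also called.

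Of 19 published miR-155 targets tested, 4 were higher and 2 lower with LPS in KO, and 4 were higher and 0 lower in WT. Cebpb, a transcription factor of inflammatory macrophages, was at 1.91 ± 0.37 in KO and 1.10 ± 0.34 in WT. Socs1, an inhibitor of cytokine signalling, was at 1.73 ± 0.47 in KO and 1.55 ± 0.44 in WT, and Jarid2 at 0.41 ± 0.09 in KO and 0.31 ± 0.09 in WT. The fourth gene higher in WT was Bach1 at 0.45 ± 0.15. With fibrils, 6 were higher and 4 lower in KO, and 4 were higher and 3 lower in WT. Spi1, the myeloid master factor PU.1, was at 0.72 ± 0.08 in KO and 0.63 ± 0.09 in WT, and Pdcd4 at -1.32 ± 0.22 in KO and -1.48 ± 0.24 in WT. The list's median log2 fold change was 0.07 in KO and 0.15 in WT with LPS, and 0.08 in KO and 0.14 in WT with fibrils. The median of all genes was -0.04 in KO and -0.02 in WT with LPS, and -0.04 and -0.05 with fibrils. The shares of all genes called were 13.7% and 15.1% with LPS, and 23.7% and 29.4% with fibrils.

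Neat1 (ENSMUSG00000092274, chr19:5824708-5845478, minus strand) was higher with LPS in WT and lower with fibrils than with LPS in both genotypes. KO libraries had 553, 504, 622 and 373 CPM with LPS and 284, 227, 189, 226 and 430 CPM with fibrils, against 252 to 716 CPM (median 295) in controls. WT libraries had 411 to 913 CPM (median 815) with LPS and 370, 375, 398 and 333 CPM with fibrils, against 368, 486, 402, 555 and 455 CPM in controls. Against controls the groups overlapped in every case, and in WT the fibril libraries all lay below the LPS libraries. Its log2 fold change with LPS was 0.47 ± 0.25 in KO (adjusted p = 0.254) and 0.70 ± 0.24 in WT (adjusted p = 0.0477). The WT call was lost without 21 of the 30 single libraries (0.63 to 0.82, adjusted p up to 0.131). It was also lost in 4 of 12 other settings, with library-size scaling (0.48), no filter on low counts (0.69), limma-voom (0.67) and the main transcript alone (0.99). In KO the value was called without KO control replicate 6, at 0.77 (adjusted p = 0.0141), and without the 7 libraries, at 0.64 (adjusted p = 0.0171). With fibrils it was -0.45 ± 0.24 in KO (adjusted p = 0.191) and -0.30 ± 0.26 in WT (adjusted p = 0.419), and in KO it was called without KO fibril replicate 5, at -0.68 (adjusted p = 0.0438), and without the 7 libraries, at -0.51 (adjusted p = 0.0363).

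**Figure D3:**
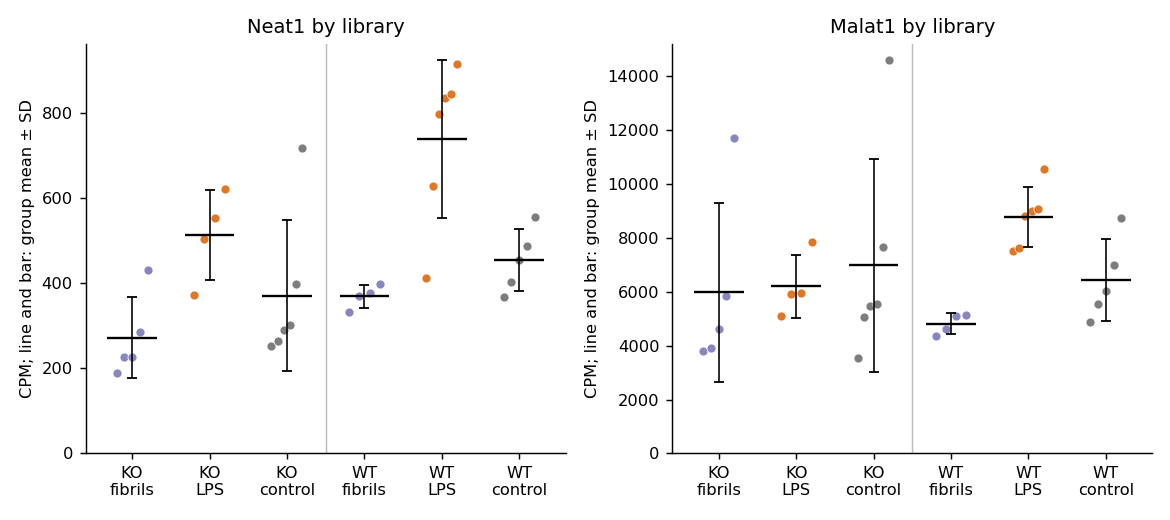
CPM of Neat1 (left) and Malat1 (right) in each library, by genotype and treatment, with lines at group means and bars of ± 1 SD. KO control replicate 6 is the highest KO control for both genes, at 716 and 14605 CPM, and KO fibril replicate 5 the highest KO fibril library, at 430 and 11721 CPM.

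Neat1 has a long transcript, Neat1-201 of 20771 bases, and a short one, Neat1-202 of 3004 bases, which overlap at the gene's 5′ end, so the split of reads there is an estimate of the counting program. Neat1-201 held 67.3 ± 4.6% of the gene's count in KO with LPS (SD, n = 4), 36.1 ± 11.2% in KO with fibrils (n = 5) and 45.2 ± 9.5% in KO controls (n = 6). In WT the share was 65.6 ± 9.9% with LPS (n = 6), 57.1 ± 3.5% with fibrils (n = 4) and 53.9 ± 7.8% in controls (n = 5). Shares in KO ran from 61.4 to 72.3% with LPS and from 23.4 to 54.2% with fibrils, so these 2 groups did not overlap. No test was made of the shares. Per length (TPM) the long form was a minority, with 23.1% of Neat1 in KO with LPS, 7.92% in KO with fibrils and 10.9% in KO controls, and 22.8% in WT with LPS, 16.0% in WT with fibrils and 14.7% in WT controls. With LPS the log2 fold change was 0.98 ± 0.38 in KO (adjusted p = 0.154) and 0.97 ± 0.36 in WT (adjusted p = 0.142) for Neat1-201. It was -0.17 in KO and 0.23 in WT for Neat1-202. Neither transcript was called in these comparisons. In KO the order of group means differed between scales. Neat1 averaged 513 CPM with LPS against 370 CPM in KO controls, but 105 TPM with LPS against 121 TPM in KO controls. KO control replicate 6 alone had 716 CPM and 190 TPM. In WT the mean was higher with LPS on both scales, at 738 CPM against 453 CPM and 150 TPM against 129 TPM in controls. The cause of this difference between scales was not tested.

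**Figure D4:**
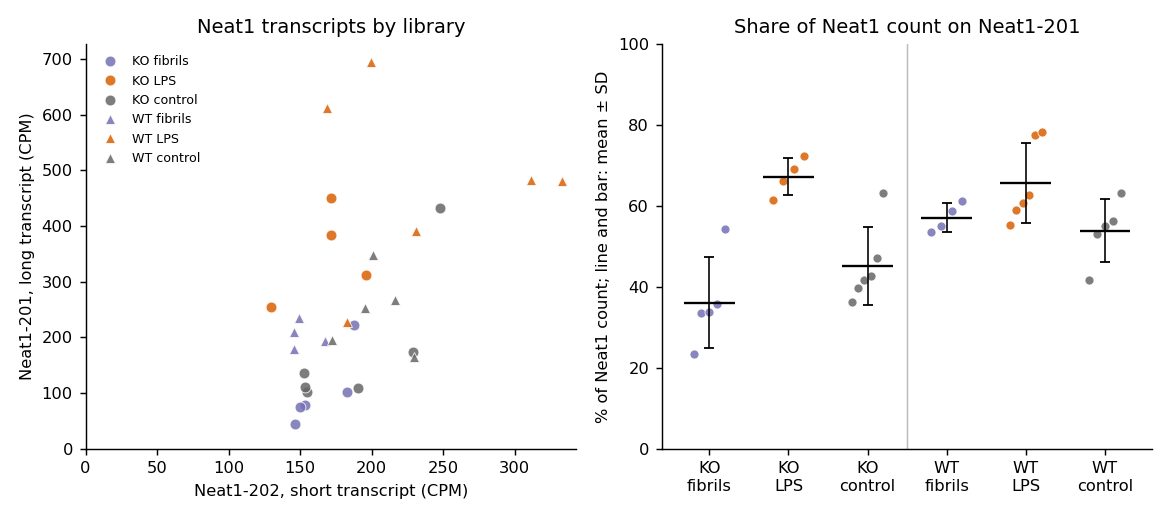
Left, CPM of the long transcript Neat1-201 (y axis) against the short transcript Neat1-202 (x axis), 1 point per library (circles KO, triangles WT, colour by treatment). Right, share of the Neat1 count on Neat1-201 in %, with lines at group means and bars of ± 1 SD, which averaged 67.3% in KO with LPS and 36.1% in KO with fibrils.

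Malat1 (ENSMUSG00000092341, chr19:5795690-5802672, minus strand) was not called against controls in either genotype. KO libraries had 5952, 5926, 7855 and 5087 CPM with LPS and 5837, 4608, 3812, 3898 and 11721 CPM with fibrils, against 3541 to 14605 CPM (median 5504) in controls. WT libraries had 7520 to 10562 CPM (median 8900) with LPS and 5114, 4620, 5154 and 4371 CPM with fibrils, against 4884, 6991, 8753, 6028 and 5530 CPM in controls. All treated groups overlapped their controls. With LPS the log2 fold change was -0.17 ± 0.30 in KO (interval -0.78 to 0.44) and 0.45 ± 0.28 in WT (interval -0.13 to 1.02). With fibrils it was -0.22 ± 0.28 in KO (interval -0.80 to 0.35) and -0.42 ± 0.31 in WT (interval -1.06 to 0.22), and the WT value was called without the 7 libraries, at -0.47 (adjusted p = 0.0434). The full-length transcript Malat1-201 (6983 bases) held 90.7% of the Malat1 count but 45.3% of its TPM, with Malat1-202 at 33.8% and Malat1-204 at 20.8% of TPM.

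Proteins of the structures that these RNAs belong to were tested as lists. Of 20 paraspeckle proteins, 2 were higher and 1 lower with LPS in KO, namely Hnrnpk at 0.35 ± 0.07, Hnrnph1 at 0.38 ± 0.09 and Rbmx at -0.62 ± 0.18. In WT with LPS 6 were higher and 0 lower, led by Hnrnph1 at 0.42 ± 0.08, Hnrnpk at 0.31 ± 0.06 and Sfpq, a core protein needed to stabilise Neat1, at 0.53 ± 0.11. With fibrils 7 were higher and 0 lower in KO, led by Dazap1 at 0.28 ± 0.06, Cpsf6 at 0.41 ± 0.09 and Ewsr1 at 0.27 ± 0.06, and in WT Hnrnpk at 0.22 ± 0.07 was higher and Cpsf7 at -0.43 ± 0.16 and Nono, the partner of Sfpq, at -0.37 ± 0.14 were lower. The list's median was -0.03 in KO and 0.24 in WT with LPS, and 0.20 in KO and -0.01 in WT with fibrils. The median of all genes was -0.04 in KO and -0.02 in WT with LPS, and -0.04 and -0.05 with fibrils. The shares of all genes called were 13.7% and 15.1% with LPS, and 23.7% and 29.4% with fibrils. Of 18 speckle and splicing factors, 3 were higher and 2 lower with LPS in KO, and 3 were higher and 1 lower in WT. Srsf5 was at 0.63 ± 0.11 in KO and 0.54 ± 0.10 in WT, Clk1, a kinase of such splicing factors, at 0.48 ± 0.09 in KO and 0.53 ± 0.08 in WT, Sf3b1 at 0.26 ± 0.07 in KO and 0.28 ± 0.07 in WT, Luc7l3 at -0.45 ± 0.12 in KO and -0.35 ± 0.11 in WT, and Pnn at -0.38 ± 0.12 in KO. With fibrils Clk1 at -0.29 ± 0.08, U2af2 at 0.23 ± 0.07, U2af1 at 0.36 ± 0.12 and Srsf2 at 0.29 ± 0.10 were called in KO, and Sf3b1 at 0.21 ± 0.08 and Srsf2 at 0.30 ± 0.11 in WT.

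None of the snoRNA hosts was called against controls. Gas5 (ENSMUSG00000053332, chr1:161034422-161038539, plus strand) had 126 to 130 CPM in KO with LPS, and 109, 95.5, 165, 156 and 135 CPM in KO with fibrils, against 97.3 to 171 CPM (median 120) in KO controls. In WT it had 74.2 to 136 CPM (median 125) with LPS and 109 to 128 CPM with fibrils, against 110 to 150 CPM in controls. The treated and control libraries overlapped in every case. With LPS its log2 fold change was 0.04 ± 0.16 in KO (interval -0.30 to 0.37) and -0.15 ± 0.15 in WT (interval -0.46 to 0.17). With fibrils it was 0.08 ± 0.15 in KO (interval -0.23 to 0.39) and -0.12 ± 0.17 in WT (interval -0.46 to 0.23). Retained-intron transcripts, 20 of its 25, held 60.8 ± 1.2% of the Gas5 count in KO with LPS, 64.2 ± 8.3% in KO with fibrils and 55.0 ± 8.1% in KO controls. In WT they held 57.1 ± 5.6% with LPS and 64.6 ± 4.1% with fibrils, against 54.6 ± 7.3% in controls (SD, n as above, no test). Counts favour long transcripts, and with each count divided by transcript length the share was 40.3 ± 2.6% with LPS, 43.7 ± 8.7% with fibrils and 35.5 ± 7.2% in controls in KO. On that scale it was 35.9 ± 4.6% with LPS, 44.6 ± 3.8% with fibrils and 35.1 ± 7.4% in controls in WT, and the spliced Gas5-224 alone held 50.1% over all libraries. One such minor form, Gas5-215, was called in KO with LPS (adjusted p = 0.0369) and with fibrils (adjusted p = 0.0358) against 6 KO controls that all had 0 counts, so no fold is given. It had 42 counts over the KO LPS and 45 over the KO fibril libraries. In WT it was not called and stood the other way, with 39 counts with LPS (adjusted p = 0.688) and 10 with fibrils (adjusted p = 0.27), against 146 in controls.

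Snhg12 (ENSMUSG00000086290, chr4:132308623-132311024, plus strand) had 11.5 to 14.3 CPM in KO with LPS and 12.2, 12.2, 19.8, 18.7 and 18.7 CPM in KO with fibrils, against 12.03 to 18.9 CPM in KO controls. In WT it had 10.01 to 15.1 CPM with LPS and 11.6 to 13 CPM with fibrils, against 12.5 to 18.98 CPM in controls. The WT fibril and control libraries touched only at the low end of the controls. With fibrils its log2 fold change was 0.13 ± 0.15 in KO (adjusted p = 0.597) and -0.41 ± 0.16 in WT (adjusted p = 0.061). The WT value was called in 7 other settings, among them RLE scaling at -0.44 (adjusted p = 0.0436) and DESeq2 at -0.44 (adjusted p = 0.0308). Another of these was the fit without the 7 libraries, at -0.49 (adjusted p = 0.021). It was also called without 1 of 3 single libraries, KO control replicate 6, KO LPS replicate 3 or WT control replicate 6. With LPS it was -0.24 ± 0.16 in KO (adjusted p = 0.392) and -0.30 ± 0.15 in WT (adjusted p = 0.201), and the WT value was called with library-size scaling, at -0.51 (adjusted p = 0.0154).

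Snhg15 (ENSMUSG00000085156, chr11:6525591-6528760, minus strand) had 10.5 to 14.8 CPM in KO with LPS and 8.12, 10.3, 13.6, 13.1 and 11.7 CPM in KO with fibrils, against 7.204 to 13.02 CPM in KO controls. In WT it had 8.66 to 10.9 CPM with LPS and 10.6 to 12.4 CPM with fibrils, against 7.15 to 10.3 CPM in controls. Only the WT fibril libraries stood clear of their controls, all above them. Its log2 fold change with fibrils was 0.17 ± 0.14 in KO (adjusted p = 0.426) and 0.35 ± 0.15 in WT (adjusted p = 0.0909). With LPS it was 0.31 ± 0.15 in KO (adjusted p = 0.192) and 0.20 ± 0.14 in WT (adjusted p = 0.46). Among the KO fibril libraries, replicates 3, 4 and 5 lay above replicates 1 and 2 for Snhg15, Snhg12, Gas5 and Mir155hg. The other tested members, Mir22hg, Neat1, Malat1 and Meg3, did not follow this order. Mir22hg had 63.5 CPM in replicate 5 and 65.0 CPM in replicate 1, and Neat1 189 CPM in replicate 3 and 284 CPM in replicate 1.

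**Figure D5:**
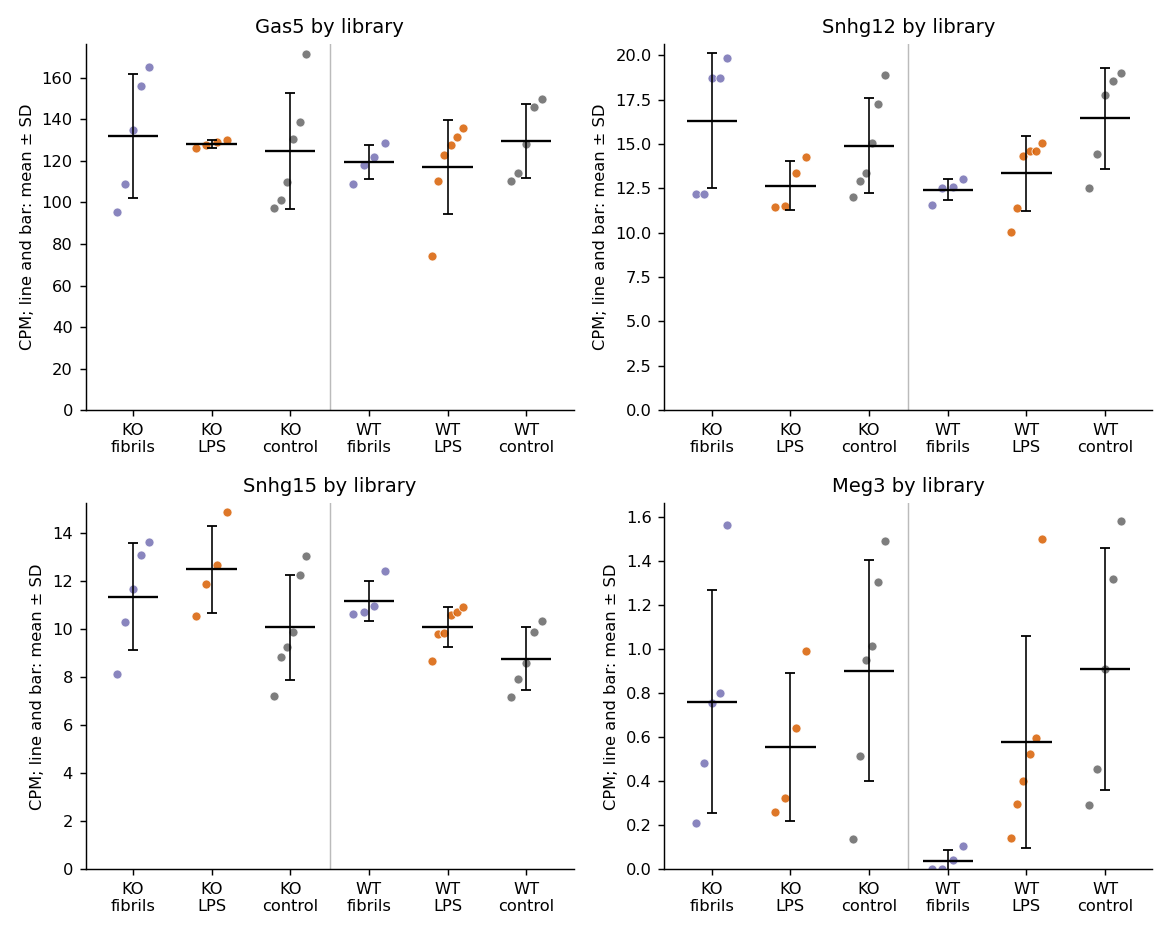
CPM of Gas5, Snhg12, Snhg15 and Meg3 in each library, by genotype and treatment, with lines at group means and bars of ± 1 SD. The 3 snoRNA hosts overlap between most groups, and the 4 WT fibril libraries of Meg3 lie between 0 and 0.106 CPM, below all libraries of the other groups.

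The small RNAs inside the hosts were hardly counted. Of 26 such genes in the table, 23 were listed at 0 in all libraries. The 9 in Gas5, the 4 in Snhg12 and the 1 in Snhg15 all lie in introns of the main spliced transcript of their host. Reads were 100 bases long, and counts fell only on Snord22 (126 bases, 3108 counts in 29 libraries), a resident of Snhg1, and on Snora44 (154 counts) and Snora16a (56 counts) of Snhg12. Snora61 (130 bases) and Snora9 (133 bases) were also longer than the reads, yet stood at 0. All 126 bases of Snord22 also lie in annotated Snhg1 exons on the same strand, and no Snhg1 transcript was in the table. Reads of Snord22 and of its host thus cannot be told apart here. Snord22 had 4.20 to 10.9 CPM in KO with LPS and 3.79 to 8.30 CPM in KO with fibrils, against 4.24 to 6.67 CPM in KO controls. In WT it had 2.25 to 7.38 CPM with LPS and 4.68 to 5.97 CPM with fibrils, against 0 to 5.14 CPM in controls. It was not called, with log2 fold changes of 0.44 ± 0.51 in KO and 0.83 ± 0.49 in WT with LPS, and 0.07 ± 0.48 in KO and 1.05 ± 0.54 in WT with fibrils. Snora44 also passed the filter and was not called. It had counts in 13 libraries, with 0 in KO with fibrils against 51 in KO controls (adjusted p = 0.0603). In WT it had 20 with fibrils against 30 in controls.

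Genes around the snoRNA hosts came from fixed lists, to be read beside the all-gene shares given with the microRNA lists. Of 17 other snoRNA hosts tested, the helicase gene Eif4a1 rose in all 4 comparisons, by 0.59 ± 0.12 in KO and 0.42 ± 0.11 in WT with LPS and by 0.41 ± 0.11 in KO and 0.55 ± 0.12 in WT with fibrils. Snhg20 fell with LPS, by 0.64 ± 0.16 in KO and 0.72 ± 0.15 in WT, and Eif4a2 at -0.36 ± 0.10 was also called in KO. With fibrils Tsr1, a factor of small ribosomal subunit assembly, was at 0.78 ± 0.14 in KO and 0.55 ± 0.16 in WT, and Nop56 at 0.55 ± 0.14 and Snhg17 at 0.33 ± 0.12 in KO and Epb41l4aos at -0.71 ± 0.26 in WT were the other calls. Of 18 subunits and assembly factors of small nucleolar ribonucleoproteins, 9 were higher and 0 lower with fibrils in KO, led by Fbl (the methyltransferase fibrillarin) at 0.53 ± 0.12, Nop58 at 0.62 ± 0.16 and Nop56, with a list median of 0.33. Over all genes 23.7% were called in that comparison, in either direction, and the median was -0.04. In WT with fibrils Nhp2 at 0.39 ± 0.14 and Nop58 at 0.47 ± 0.18 were higher, and the median was 0.15. With LPS only Shq1 in KO at 0.41 ± 0.12 and Ncl in WT at 0.41 ± 0.12 were called. Of 16 factors of nonsense-mediated decay, Upf3b fell with LPS by 0.43 ± 0.10 in KO and 0.33 ± 0.09 in WT, and Upf1 by 0.38 ± 0.13 in KO. With fibrils Smg5 was at 0.42 ± 0.07 in KO and 0.42 ± 0.08 in WT, Smg8 at 0.32 ± 0.09 in KO and 0.43 ± 0.10 in WT and Dhx34 at -0.52 ± 0.10 in KO and -0.36 ± 0.11 in WT, and Smg9 at 0.29 ± 0.10 and Eif4a3 at 0.27 ± 0.10 were called in WT.

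Meg3 (ENSMUSG00000021268, chr12:109541001-109571726, plus strand) was rare everywhere and nearly absent from the counts of WT cultures with fibrils. These had 0.0445, 0, 0 and 0.106 CPM, against 0.292 to 1.58 CPM in the 5 WT controls. The groups did not overlap, although the WT fibril value rests on 3 counts against 121 in WT controls, a ratio of 0.0291 with a 95% counting interval of 0.00592 to 0.0871 that covers counting error only. The log2 fold change was -4.51 ± 1.05 (adjusted p = 0.000669). KO cultures with fibrils had 1.56, 0.754, 0.800, 0.209 and 0.482 CPM, against 0.137 to 1.49 CPM in KO controls, and the groups overlapped (-0.22 ± 0.60, adjusted p = 0.851). With LPS Meg3 had 0.259 to 0.991 CPM in KO and 0.144 to 1.501 CPM in WT, not called at -0.66 ± 0.65 and -0.68 ± 0.61. The fibril response in KO minus that in WT was 4.29 ± 1.21 with a 95% interval of 1.79 to 6.79, not called over all genes (adjusted p = 0.217) but called with DESeq2, at 4.54 (adjusted p = 0.0387), and without the 7 libraries, at 4.80 (adjusted p = 0.0364).

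Markers of several other cell types were also lower in WT with fibrils, but not every list followed Meg3 in the other comparisons. The 13 astrocyte markers summed to 16.5 to 23.9 CPM in WT with fibrils, where 7 were under 1 CPM and Gjb6 and Ntsr2 at 0, against 23.6 to 217 CPM in WT controls. The sum was 61.3 to 320 CPM in KO with fibrils, against 45.8 to 260 CPM in KO controls. The 13 fibroblast markers summed to 25.5 to 27.4 CPM in WT with fibrils, with 10 under 1 CPM and none at 0, against 35.5 to 165 CPM in WT controls. They summed to 48.2 to 153 CPM in KO with fibrils, against 69.8 to 153 CPM in KO controls. The 11 neuron markers summed to 1.29 to 2.55 CPM in WT with fibrils, with 10 under 1 CPM and Gad1 and Nefl at 0, against 2.16 to 16.6 CPM in WT controls. They summed to 4.55 to 14.9 CPM in KO with fibrils, against 5.06 to 26.6 CPM in KO controls. The part of these cells in the Meg3 result was not tested, and in bulk RNA fewer cells of a type and less RNA per cell cannot be told apart. The 13 oligodendrocyte lineage markers summed to 96.0 to 108 CPM in WT with fibrils, against 104 to 211 CPM in WT controls. With fibrils 9 were under 1 CPM, with Mog and Mobp at 0, against 3 under 1 CPM in controls. All 13 were tested, with 3 lower, 0 higher and a median of -3.65. In KO they summed to 97.2 to 355 CPM with fibrils, against 106 to 851 CPM in controls. There 1 was lower and the median was -1.20, where Meg3 was at -0.22. For KO against WT in controls their median was 1.90 with 0 called, where Meg3 was at -0.04. The 10 endothelium and pericyte markers summed to 15.8 to 20.3 CPM in WT with fibrils, within the 9.48 to 22.4 CPM of WT controls. With fibrils 7 were under 1 CPM, with Tek at 0, against 5 in controls. Of 5 tested, 3 were lower and 1 higher, with a median of -1.51. In KO the sum was 13.5 to 27.1 CPM with fibrils, against 11.4 to 26.6 CPM in controls, with 1 lower and a median of -0.31. With the mean level of markers of astrocytes, oligodendrocytes and fibroblasts as a covariate, the WT fibril value of Meg3 was -2.90 (adjusted p = 0.00569). An earlier analysis of these data had chosen this alternative after seeing them. Many of these markers are themselves low in the WT fibril group, so such a fit cannot separate their part from that of the group. Of the Dlk1-Dio3 region only Rian, the next noncoding RNA of the region, was tested beside Meg3, and it was at -3.90 ± 1.07 in WT with fibrils (adjusted p = 0.00735), 11 counts against 256 in WT controls, and at 0.08 ± 0.73 in KO. H19, an imprinted RNA of another chromosome, had 0 counts in all 4 WT fibril libraries, against 204 in WT controls.

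Other long noncoding RNAs were set beside the members. Over all genes 13.7% were called with LPS in KO and 15.1% in WT, and with fibrils 23.7% and 29.4%. Of 18 other abundant ones, Sra1 at 0.52 ± 0.09 in KO and 0.58 ± 0.09 in WT and Ftx, a neighbour of Xist, at -1.28 ± 0.17 in KO and -1.04 ± 0.16 in WT were called with LPS, as were 1700020I14Rik at -0.36 ± 0.08 in KO and Tug1 at 0.31 ± 0.08 in WT. With fibrils only Sra1 was called in KO, at 0.40 ± 0.09, while in WT 1 was higher and 7 lower, led by 4933404O12Rik at -1.53 ± 0.33, Ftx at -0.78 ± 0.18 and H19. Of 7 others linked to macrophage activation, Ptgs2os2, next to the cyclooxygenase gene Ptgs2, rose with LPS by 2.75 ± 0.60 in KO and 2.71 ± 0.56 in WT. F630028O10Rik at -0.89 ± 0.27 and Gm15987 at -3.18 ± 1.05 were lower in KO with LPS, and Gm14005 at 1.40 ± 0.34 was higher in WT. With fibrils F630028O10Rik at -0.73 ± 0.25 was called in KO, and Gm14005 at 1.75 ± 0.37 and AW112010 at 1.49 ± 0.55 in WT.

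Between the genotypes, members were called with fibrils and not with LPS or in controls. KO against WT gave 0 called members with LPS, where 1.73% of all genes were called, and 0 in controls, where 0.321% were. At an unadjusted p under 0.05 all-gene counts were 2469 with LPS and 1043 in controls. With fibrils 2 members were called, both higher in KO, against 8.94% of all genes. These were Meg3 at 4.25 ± 1.05 (adjusted p = 0.00779), with 83 counts in KO against 3 in WT, and Mir155hg at 1.74 ± 0.54 (adjusted p = 0.048), whose libraries overlapped. The Meg3 call was lost with limma-voom (3.98, adjusted p = 0.0525) and with the marker covariate (2.07, adjusted p = 0.332). The Mir155hg call was lost in 6 of 12 other settings. These were no filter on low counts, limma-voom, only the groups compared, the replicate block, the marker covariate and leaving out the 7 libraries. It was also lost without 19 of the 30 single libraries, and the value fell to 0.89 without KO fibril replicate 5 (adjusted p = 0.254). That library also had the highest CPM of its group for Malat1, Neat1 and Il1b, the last at 478 CPM beside 41.1 to 457 CPM in the other KO fibril libraries and 58.4 to 103 CPM in WT.

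In KO against WT controls Mir155hg was at 1.71 ± 0.73 with a 95% interval of 0.19 to 3.22 (adjusted p = 0.565). With LPS it was at 0.01 ± 0.46 (interval -0.94 to 0.97). Mir22hg was at -0.32 ± 0.12 with fibrils (adjusted p = 0.0939), and Neat1 at -0.44 ± 0.26 with fibrils, -0.52 ± 0.25 with LPS (adjusted p = 0.293) and -0.29 ± 0.24 in controls. Without the 7 libraries Neat1 was called with fibrils, at -0.67 (adjusted p = 0.00818), and with LPS, at -0.63 (adjusted p = 0.0228). Snhg12 was at 0.39 ± 0.16 with fibrils (adjusted p = 0.129). Gas5 stayed within intervals of -0.37 to 0.49 in the 3 comparisons. The difference of the responses between genotypes called 0 members and 0.0% of all genes for LPS and 0.0% for fibrils. At an unadjusted p under 0.05 it gave 600 genes for LPS and 1667 for fibrils, and DESeq2 called 0 and 67, limma-voom 0 and 0.

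The lists gave few calls between genotypes, where 8.94% of all genes were called with fibrils, 1.73% with LPS and 0.321% in controls. Dhx34 and Smg9, factors of nonsense-mediated decay, were lower in KO in all 3 comparisons. Whether this comes from the loss of Lrrk2 or from other differences between the KO and WT mice was not tested. Dhx34 was at -0.80 ± 0.12 with fibrils, -0.56 ± 0.11 with LPS and -0.64 ± 0.10 in controls. Smg9 was at -0.62 ± 0.10 with fibrils, -0.49 ± 0.10 with LPS and -0.54 ± 0.09 in controls. They were the only lower calls of the 16 decay factors tested, and Upf3b at 0.35 ± 0.10 was higher with fibrils. The median of the 16 was 0.05 with fibrils, -0.17 with LPS and 0.01 in controls. That of all genes was 0.01, 0.02 and 0.01. Of the paraspeckle proteins Sfpq at 0.40 ± 0.12 and Pspc1 at 0.34 ± 0.11 were higher in KO with fibrils, and Nono at -0.59 ± 0.14 and Hnrnpa1 at -0.71 ± 0.17 lower with LPS. With LPS Acin1 at -0.48 ± 0.12, Tnrc6c at -0.59 ± 0.15 and Shq1 at 0.54 ± 0.12 were the calls of the speckle, microRNA processing and nucleolar lists. Among miR-155 targets only Csf1r, the receptor on which microglia survival depends, was called with fibrils, at -0.90 ± 0.16, and among other noncoding RNAs Rian at 4.43 ± 1.06 and H19 were higher and Dnmt3aos at -1.79 ± 0.52 lower. The lists of other snoRNA hosts and other microRNA hosts had no call between genotypes, and their smallest adjusted p-values were 0.0526 for Snhg9 and 0.136 for Mir9-3hg, both with fibrils.

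More members were called for fibrils against LPS than for either treatment against controls, as was the case over all genes. In KO 3 members were called, all lower with fibrils, against 26.5% of all genes, and in WT 5, all lower, against 37.1%. The median of the members was -0.10 in KO and -0.65 in WT, where that of all genes was 0.02 and -0.04. Mir155hg was at -2.78 ± 0.49 in KO and -4.51 ± 0.52 in WT, Mir22hg at -0.91 ± 0.12 in KO and -0.44 ± 0.12 in WT and Neat1 at -0.92 ± 0.26 in KO (adjusted p = 0.0103) and -0.999 ± 0.25 in WT (adjusted p = 0.00422). In WT Malat1 at -0.86 ± 0.30 (adjusted p = 0.0275) and Meg3 at -3.84 ± 1.04 (adjusted p = 0.00174) were also called, while in KO Malat1 was at -0.05 ± 0.31 and Meg3 at 0.43 ± 0.68. The Meg3 value in WT was -2.23 with the marker covariate (adjusted p = 0.0198) and -2.56 from its main transcript (adjusted p = 0.0472). Beside it 8 of 12 tested astrocyte markers and 8 of 12 tested fibroblast markers were lower with fibrils than with LPS in WT, with list medians of -3.72 and -3.32, and their part in the Meg3 result was not tested. The Malat1 call was lost without WT LPS replicate 2 or WT fibril replicate 1, 2 or 4 (adjusted p up to 0.0715). The 4 Malat1 values of WT with fibrils, 4371 to 5154 CPM, all lay below the 6 of WT with LPS.

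Of 42 member transcripts tested, 4 were called with LPS in KO and 3 in WT, against 4.85% and 5.53% of 37951 transcripts, and 4 with fibrils in KO and 2 in WT, against 5.69% and 6.02%. Apart from Gas5-215 these were transcripts of the microRNA hosts. For fibrils against LPS 4 were called in KO, against 7.85% of transcripts, and 7 in WT, against 10.9%. Both Neat1 forms were lower with fibrils in WT, Neat1-201 at -1.24 ± 0.38 (adjusted p = 0.0424) and Neat1-202 at -0.65 ± 0.17 (adjusted p = 0.0143), while in KO Neat1-201 was at -1.74 ± 0.40 (adjusted p = 0.00527) and Neat1-202 at -0.03 ± 0.18. The 2 short Malat1 transcripts Malat1-202 at -1.04 ± 0.27 and Malat1-204 at -1.01 ± 0.31 were called in WT, and Snhg15-201 at -2.16 ± 0.56 in KO. The 7 transcripts of WT fell to 1 without WT fibril replicate 1 or 4, and to 3 without WT fibril replicate 2 or 3 or WT LPS replicate 3.

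By the likeness of their pattern over the 6 group means, the genes nearest to each member among 9406 were named, with the root mean square difference on the log2 scale. Nearest to Mir155hg were Socs3, a feedback inhibitor of cytokine signalling, at 0.52, and Il1b, the cytokine interleukin 1 beta, at 0.64. Nearest to Mir22hg were Zfand5 at 0.11 and Tnip3, an inhibitor of NF-kB signalling, at 0.12. Neat1 was nearest to Nabp1 at 0.086 and to the transcription factor gene Runx1 at 0.098, and Malat1 to Ppp2r5e at 0.040 and Cdt1 at 0.048. Meg3 was nearest to Acta2, smooth muscle actin, at 0.19, and Igfbp5 at 0.20. The nearest genes to the snoRNA hosts were Mre11a and Timm50 for Gas5, Ccar2 and Prdm10 for Snhg12 and Larp1b and Lyrm4 for Snhg15. These are descriptions of 6 means that share control libraries and carry no test.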

How the data were processed

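Ribosomal RNA was removed, and libraries made with a stranded kit for total RNA were read from 1 end over 100 bases, per the labels' protocols. CASAVA 1.7.1 called bases and STAR 2.4.2a aligned reads to mm10, per the submitters' processing notes. The authors deposited expected counts per Ensembl transcript, held as whole numbers with no normalization. The sources used here name neither the program that estimated these counts nor its annotation or its use of strand, so overlapping and antisense genes are uncertain.

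Transcript counts were summed to genes by GENCODE M21 (91320 of 94647 transcripts matched, the rest holding 0.779 to 0.891% of counts), filtered with edgeR's filterByExpr (14346 genes) and scaled with TMM factors (0.827 to 1.14). edgeR 4.0.16 under R 4.3.3 fitted 1 mean per group over all 30 libraries (24 residual degrees of freedom, a common biological coefficient of variation of 0.294), with Benjamini-Hochberg adjustment over all genes in each of 11 comparisons, and the same on 37951 transcripts. Standard errors are Wald errors. TPM was computed from the counts and exon lengths. Fits were tested on simulated data. A marker or list gene counts as called at an adjusted p under 0.05.

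Members and lists were chosen with earlier results of these data known. Named genes are the members, up to 3 called genes of the smallest p per list and comparison, or all those that make up a count of at most 5, Lrrk2, Tnf and the 2 genes nearest to each member in pattern. Il1b in KO fibril libraries was named after its values were seen. Alternatives were RLE and library-size scaling, 2 other filters, DESeq2 1.42.0, limma-voom (limma 3.58.1), only the compared groups, replicate number as a block, marker levels as a covariate, protein-coding genes with members, the main transcript alone, and libraries left out singly or 7 together.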

Additional observations from a re-analysis of the deposited data

Results flagged for a closer look

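Of 48 sets of libraries, each of 4 to 6 libraries of 1 group for 1 member, 5 held a library far from the others, and chance alone marks about 1 in 20 such sets. Neat1 was at 716 CPM in KO control replicate 6, where the next highest KO control had 398 CPM. Malat1 was at 14605 CPM in the same library, with the next at 7648 CPM. Malat1 was also at 11721 CPM in KO fibril replicate 5, where the next KO fibril library had 5837 CPM. Mir22hg was at 89.4 CPM in WT LPS replicate 1, below the next lowest WT LPS library at 117 CPM. Meg3 was at 1.501 CPM in that same WT LPS library, where the next highest had 0.597 CPM. Without KO control replicate 6 the Neat1 difference with LPS in KO was called, as given above, and without KO fibril replicate 5 the Neat1 difference with fibrils in KO was called and the Mir155hg difference between genotypes with fibrils was not.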

How the results depend on the processing

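The calls of Mir22hg against controls and of both microRNA hosts with LPS held under all 12 other settings and without each of the 30 libraries, and no called value changed sign. Of 2830 values of uncalled members, 112 did. For the other settings, only larger changes in a count of calls are listed next. A change between 3 and 4 or between 2 and 3 was not listed as a move. Members called moved with fibrils in WT to 5 without the 7 libraries that stand apart, with fibrils in KO to 1 with limma-voom, and for KO against WT with LPS to 1 with only the groups compared (Malat1) and to 1 without the 7 libraries (Neat1). For KO against WT with fibrils they moved to 1 without a filter, and to 0 with limma-voom, with only the groups compared or with the marker covariate. With only the groups compared 7 members were tested, and Meg3 was not among them. Without the 7 libraries Neat1 was called in this comparison and Mir155hg was not. The difference in fibril response gave 1 (Meg3) with DESeq2 and 1 without the 7 libraries. Transcripts called moved to 4 with library-size scaling for fibrils in WT, and to 4 with the replicate block for fibrils against LPS in WT, and settings for transcripts were chosen after seeing the data. The cause of these changes was not tested. Leaving out single libraries gave, with LPS, 2 to 3 members in KO and 2 to 3 in WT, with fibrils 2 to 3 in KO and 3 to 4 in WT, between genotypes 1 to 2 with fibrils and 0 with LPS and in controls, 0 for both response differences, and for fibrils against LPS 3 to 4 in KO and 4 to 5 in WT. Transcripts ranged over 3 to 4 in KO and 3 in WT with LPS, 3 to 5 in KO and 2 to 3 in WT with fibrils, 0 between genotypes, and 3 to 4 in KO and 1 to 8 in WT for fibrils against LPS. Lrrk2 ranged over -2.76 to -2.45 with fibrils, -2.26 to -1.92 with LPS and -2.42 to -2.14 in controls, and Tnf with LPS over 4.02 to 4.27 in KO and 4.21 to 4.48 in WT. Deviations of same-numbered libraries had a mean r of 0.0697, with 25 of 64 pairs over 0.1, and those of other-numbered libraries a mean of -0.0142, with 77 of 309 over 0.1. Since not every same-numbered pair was over 0.1 and the labels give no shared source, the numbers were not taken to pair the samples. With the replicate block, 3 members were called with LPS in KO and 3 in WT, 2 with fibrils in KO and 4 in WT, and 2 for KO against WT with fibrils, where Mir22hg at -0.34 (adjusted p = 0.0452) was called and Mir155hg at 1.25 (adjusted p = 0.134) was not. The block also called Neat1 with LPS in KO, at 0.70 (adjusted p = 0.0462), and Snhg15 with fibrils in WT, at 0.44 (adjusted p = 0.0382). All-gene counts under the 12 other settings ranged from 1110 to 2835 with LPS in KO, 1785 to 3827 with LPS in WT, 1541 to 3870 with fibrils in KO, 2556 to 5845 with fibrils in WT, 84 to 2580 for KO against WT with fibrils, 116 to 1097 with LPS, 17 to 152 in controls and 0 to 250 for the fibril response. Leaving out 1 library, they ranged from 375 to 1639 for KO against WT with fibrils and 35 to 478 with LPS. Depth limits Meg3 and Mir155hg, whose control counts were 3 to 53 and 1 to 35 per library.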
